A study of Mus musculus with 4 samples.

Results

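Guanylate-binding proteins (GBPs) and immunity-related GTPases (IRGs) are GTPases that cells make in response to interferon-gamma. The 9 genes described here were chosen by symbol, with earlier results of these data known. The set comprises the GBP genes Gbp2, Gbp3, Gbp5 and Gbp7 and the IRG genes Irgm1, Irgm2, Igtp, Iigp1 and Tgtp1. They are 9 of the 17780 genes in the lung RNA-Seq table, and all 9 were present in it. In the library from amiodarone-treated lung every member was higher than in the vehicle library, by 1.46-fold for Gbp2 to 3.17-fold for Igtp, and in the library from lung exposed to amiodarone with dabigatran every member was below its amiodarone level.

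The study asked what chronic amiodarone, an antiarrhythmic drug known for lung toxicity, does to lung gene expression, and what dabigatran, an oral inhibitor of the clotting protease thrombin, does to that response. Male mice of the C57BL/6 strain (C57BL/6J in the methods), bought at 6 to 7 weeks of age, were dosed by mouth 5 times per week for 4 weeks. The 4 groups received vehicle alone, amiodarone at 300 mg per kg per day, dabigatran at 60 mg per kg per day, or amiodarone + dabigatran at the same doses. Poly(A) RNA of the left lung gave 1 library per group. No group carries a transgene or a deleted allele. The labels give 28 days of treatment and the methods place tissue collection at day 26.

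No test between groups could be made with 1 library each, and every ratio below compares 2 libraries and not 2 treatments. Each ratio carries an exact 95% Clopper-Pearson interval computed from the read counts. These intervals cover counting error only, and with 1 library per group they hold no animal-to-animal spread. Sequenced fragments are not independent molecules, so the intervals may be too narrow even for counting error. Levels are given in FPKM, fragment numbers corrected for transcript length and for depth, a scale on which levels of different genes can be set side by side. Total estimated reads ranged from 17498486 with vehicle to 18903401 with amiodarone + dabigatran, and each member had between 186 and 3224 reads in each library. The surfactant gene Sftpc, which marks alveolar type II cells, stood at 19587 to 20385 FPKM in the 4 libraries and was thus abundant in each. In whole-lung RNA, fewer cells of a type and less RNA per cell cannot be told apart.

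In resting cells most of these genes are transcribed weakly, and interferon-gamma raises them through JAK kinases and transcription factors that bind GAS and ISRE elements. The products assemble on the vacuoles and membranes that enclose intracellular bacteria and parasites and help to rupture them. Among the IRGs, Irgm1, Irgm2 and Igtp (Irgm3) encode regulatory forms that sit on the cell's own membranes and hold the effector forms, among them those of Iigp1 (Irga6) and Tgtp1 (Irgb6), in an inactive state.

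The stretch of DNA just upstream of the annotated start is shown for the 7 members with an ISRE-like run close to the start, because these elements are where interferon-activated factors are known to act. Promoters of 8 members, all but Iigp1, were listed by RefSeq (build GRCm38.p6), each as a window of 250 bases before to 50 after a start, and Gbp3 had a window for each of 2 starts. The GAS-like search used TTCNNNGAA, which reads the same on both strands, and the ISRE-like search used GAAANNGAAA with its reverse complement TTTCNNTTTC. Below, bases -110 to -1 relative to the start are written 5′ to 3′ on the strand of the gene, with matches to either run in capitals. The Gbp genes shown lie on the plus strand at chr3:142620553-142620662 (Gbp2), chr3:142559934-142560043 (Gbp3, the start whose window holds a match) and chr3:142530226-142530335 (Gbp7). Igtp at chr11:58199446-58199555 and Irgm2 at chr11:58214867-58214976 are on the plus strand, and Irgm1 at chr11:48871421-48871530 and Tgtp1 at chr11:48992247-48992356 on the minus strand.
Gbp2: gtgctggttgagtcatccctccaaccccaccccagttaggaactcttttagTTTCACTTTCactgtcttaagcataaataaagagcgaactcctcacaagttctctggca
Gbp3: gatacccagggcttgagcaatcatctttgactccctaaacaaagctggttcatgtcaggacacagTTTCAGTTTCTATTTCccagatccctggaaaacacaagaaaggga
Gbp7: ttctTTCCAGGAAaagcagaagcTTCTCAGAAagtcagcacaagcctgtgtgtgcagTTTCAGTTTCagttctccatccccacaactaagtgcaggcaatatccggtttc
Irgm1: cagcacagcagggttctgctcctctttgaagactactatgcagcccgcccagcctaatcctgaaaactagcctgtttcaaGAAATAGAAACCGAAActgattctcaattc
Irgm2: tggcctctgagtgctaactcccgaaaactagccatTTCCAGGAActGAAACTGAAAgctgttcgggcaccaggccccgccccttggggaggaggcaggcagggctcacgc
Igtp: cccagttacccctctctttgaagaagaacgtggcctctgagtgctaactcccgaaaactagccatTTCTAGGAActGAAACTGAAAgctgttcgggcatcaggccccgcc
Tgtp1: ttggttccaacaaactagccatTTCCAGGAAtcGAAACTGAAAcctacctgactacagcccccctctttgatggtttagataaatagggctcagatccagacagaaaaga

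An ISRE-like run was present in the windows of all 8 members searched, or 8 of 9 windows, whereas 3.44% of the 32851 promoter windows in the table held one. A GAS-like run was present in 5 of the 9 windows, those of Gbp5, Gbp7, Tgtp1, Igtp and Irgm2, against 8.30% of all windows. Both runs occurred together in those 5 and in 0.454% of all windows. Of 9 windows of other GBP and IRG genes, 5 held an ISRE-like run, 3 a GAS-like run and 3 both. In Igtp, Irgm2 and Tgtp1 the GAS-like run was followed after 2 bases by the ISRE-like run, at -45 to -25, -75 to -55 and -88 to -68 from the start. The same spacing was found in Tgtp2 and Gm12185, which are not members. The window of Igtp and that of Irgm2, set 30 bases apart, were identical at 184 of 270 bases (68.1%), and the paired runs and their flanks lie in the shared stretch. Gbp2, Gbp3 and Gbp7 carried the TTTCNNTTTC form on the gene's strand, and the 4 IRG windows carried the GAAANNGAAA form. Overlapping ISRE-like runs were found in Gbp3 and Irgm1. Gbp5, not printed, had its ISRE-like run at -165 to -156 and its GAS-like runs at -245 to -237 and -52 to -44. A match is a run of letters and not a measured binding site.

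**Figure D1:**
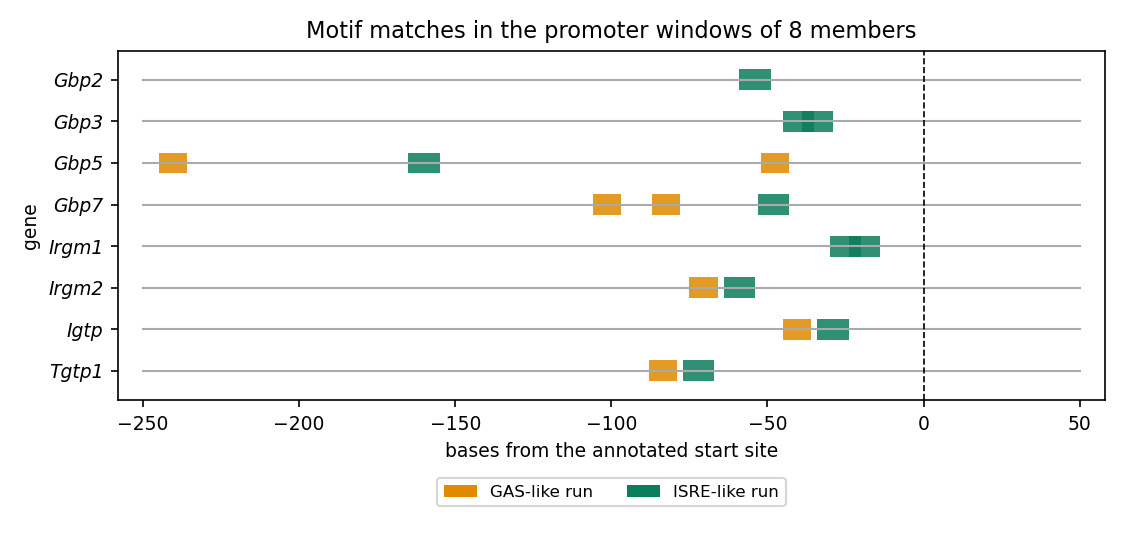
Positions of GAS-like (orange) and ISRE-like (green) runs in the promoter windows of 8 members, with the horizontal axis in bases from the annotated start site (dashed line) and 1 row per gene; for Gbp3 the window that holds matches is drawn. Igtp, Irgm2 and Tgtp1 have both runs side by side, and the ISRE-like run of Gbp5 at -165 to -156 is the farthest of its kind from the start.

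The genes sit in clusters. In GRCm38.p6 the 4 GBP members lie together on chromosome 3, with Gbp5 at 142496934 to 142522344, Gbp7 at 142530336 to 142550151, Gbp3 at 142560016 to 142573213 and Gbp2 at 142620663 to 142638008. On chromosome 11 Irgm1 spans 48865245 to 48871420 and Tgtp1 48985329 to 48992246, while Igtp at 58199556 to 58207592 and Irgm2 at 58214977 to 58222783 are neighbours.

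In absolute level, Gbp2 was the most abundant member in vehicle-treated lung at 37.09 FPKM, followed by Igtp (18.10), Irgm2 (17.57) and Irgm1 (17.27), whose counting intervals overlapped. Iigp1 (13.41), Gbp3 (10.69), Gbp7 (8.40), Gbp5 (5.40) and Tgtp1 (3.85) followed, each apart from the next. In the amiodarone library Igtp (57.42) and Gbp2 (54.32) led with overlapping intervals, and the summed level of the 9 members was 314.97 FPKM against 131.78 with vehicle. Irgm2 and Irgm1 overlapped there too, as did Tgtp1 and Gbp5. The order with dabigatran alone was that of vehicle except that Irgm2 (22.19) came before Igtp (21.61), and these overlapped with each other and with Irgm1 (20.05). With amiodarone + dabigatran Gbp2 (49.63) was again ahead of Igtp (43.69), Irgm2 (35.88) and Irgm1 (32.89) overlapped, and so did Gbp3 (14.15) and Gbp7 (13.22), while Tgtp1 (8.63) was above Gbp5 (6.98). The 5 IRG members summed to 70.2 FPKM with vehicle and 203.35 with amiodarone, and to 84.43 with dabigatran and 142.44 with both drugs. The 4 GBP members summed to 61.58, 111.62, 65.11 and 83.98 in that order.

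**Figure D2:**
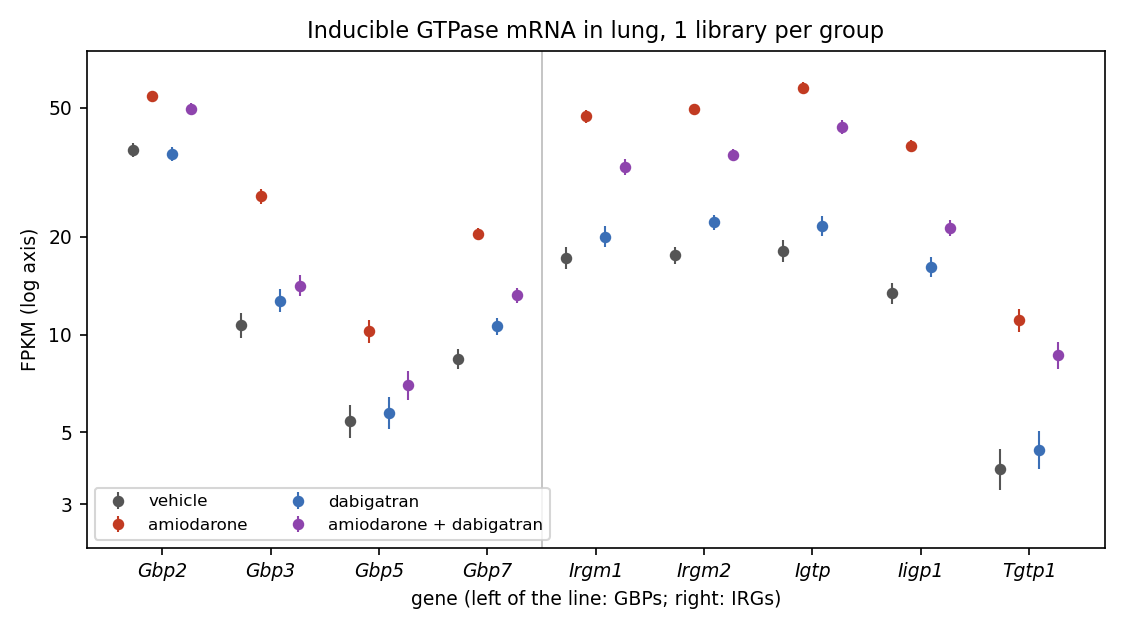
FPKM (log axis) of each member in the vehicle, amiodarone, dabigatran and amiodarone + dabigatran libraries, 1 library per group, with GBP genes left and IRG genes right of the line. Bars are 95% counting intervals. For all 9 genes the amiodarone point is the highest and the combination point the second.

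Among the regulatory IRGs, Igtp was measured at 18.10 FPKM with vehicle and 57.42 with amiodarone, and at 21.61 with dabigatran and 43.69 with both drugs. It had the highest amiodarone-to-vehicle ratio of the members, 3.17 (95% interval 2.90 to 3.47), and ranked 84 from the top among the 13402 genes compared. That interval overlapped those of the other IRG members. Against amiodarone alone, the combination library held 0.761 times as much (0.713 to 0.812), and against dabigatran alone 2.02 times as much (1.85 to 2.21). Igtp thus stayed above both libraries made without amiodarone. Relative to Gbp2, Igtp went from 0.488 with vehicle to 1.06 with amiodarone, 0.600 with dabigatran and 0.880 with both drugs.

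Irgm2, a Golgi-associated regulator, stood at 17.57 FPKM with vehicle, 49.67 with amiodarone, 22.19 in the dabigatran library and 35.88 with both drugs. Its amiodarone-to-vehicle ratio was 2.83 (2.64 to 3.03), and the combination was at 0.722 times the amiodarone level (0.685 to 0.762). Irgm1, a regulator that also takes part in autophagy and in mitochondrial and lysosomal quality control, stood at 17.27, 47.09, 20.05 and 32.89 FPKM in the same order of libraries. It was 2.73-fold higher with amiodarone than with vehicle (2.49 to 2.99) and 0.698 times the amiodarone level with the combination (0.650 to 0.750). The 3 regulators had nearly the same level with vehicle and kept the order Igtp, Irgm2, Irgm1 in both libraries made with amiodarone, with Irgm2 and Irgm1 overlapping.

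Iigp1, an effector that loads onto parasite vacuoles, lies at 60373616 to 60392634 on chromosome 18. Its level was 13.41 FPKM with vehicle and 38.10 with amiodarone, then 16.16 with dabigatran and 21.35 with both drugs. The amiodarone-to-vehicle ratio of 2.84 (2.60 to 3.10) was like that of Irgm2, but with the combination Iigp1 was at 0.560 times the amiodarone level (0.521 to 0.602), the lowest such value among the IRG members.

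Tgtp1, a T cell-specific GTPase by its name, was the least abundant IRG member at 3.85 FPKM with vehicle, 11.07 with amiodarone, 4.42 in the dabigatran library and 8.63 with both drugs. Its ratios were 2.88 for amiodarone against vehicle (2.43 to 3.41), 0.780 for the combination against amiodarone (0.687 to 0.883) and 1.95 for the combination against dabigatran (1.66 to 2.31). Tgtp1 and its near-identical neighbour Tgtp2 can share reads, so how reads were divided between them is uncertain. Summed, the pair stood at 16.2, 49.5, 22.7 and 36.4 FPKM in the 4 libraries, and Tgtp1 was assigned 19.5% to 23.8% of the sum. For the sum the combination was 1.61 times the dabigatran library, lower than for Tgtp1 by itself, while the amiodarone-to-vehicle ratio was 3.06.

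Of the GBPs, Gbp2, which coats pathogen vacuoles, was the most abundant and had the lowest amiodarone-to-vehicle ratio of the 9. Levels were 37.09 FPKM with vehicle, 36.02 with dabigatran, 54.32 with amiodarone and 49.63 with both drugs. The amiodarone-to-vehicle ratio was 1.46 (1.37 to 1.56), and the combination was at 0.914 times the amiodarone level (0.862 to 0.968). Gbp2 was the single member that was lowest with dabigatran and not with vehicle, and that difference, 0.971-fold (0.904 to 1.04), was within counting error.

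Gbp3 stood at 10.69, 26.67, 12.72 and 14.15 FPKM with vehicle, amiodarone, dabigatran and both drugs. It was 2.49-fold higher with amiodarone than with vehicle (2.25 to 2.77) and, at 0.531 times the amiodarone level with the combination (0.483 to 0.582), showed the largest drop of the 9. The interval of this drop overlapped that of Iigp1 (0.521 to 0.602). With both drugs Gbp3 did not differ from dabigatran alone beyond counting error, at a ratio of 1.11 (0.995 to 1.24). As a share of the Gbp2 level, Gbp3 was 28.8% in the vehicle library, 49.1% with amiodarone, 35.3% in the dabigatran library and 28.5% with both drugs.

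Gbp7 followed a like course, at 8.40, 20.41, 10.62 and 13.22 FPKM in the same order of libraries, with ratios of 2.43 for amiodarone against vehicle (2.24 to 2.64) and 0.648 for the combination against amiodarone (0.605 to 0.693). Gbp5, which promotes inflammasome assembly, was the least abundant GBP at 5.40, 10.22, 5.75 and 6.98 FPKM. Its ratios in these comparisons were 1.89 (1.64 to 2.19) and 0.683 (0.599 to 0.778). For both genes the combination library lay between dabigatran alone and amiodarone alone. The read estimates of Gbp2, Gbp5, Irgm1 and Iigp1 were whole numbers (within 0.005) in every library, whereas those of the other 5 members held fractions, since some of their reads were divided with other genes.

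Amiodarone alone against vehicle was the widest contrast. All 9 members were higher beyond counting error, while 19.6% of the 13402 genes compared (those reaching 1 FPKM in one library or both) were. At least 2-fold on the log2(FPKM + 1) scale, which compresses differences between low values, were 7 of the 9, all but Gbp2 and Gbp5, against 1.87% of all genes. On that scale the median difference of the members was 1.32 and that of all genes -0.05. Among the members, the ratios of the 5 IRG genes, 2.73 to 3.17, were all above those of the 4 GBP genes, 1.46 to 2.49. The Gbp3 interval (2.25 to 2.77) overlapped those of all IRG members except Igtp. Other genes of these families did not divide in this way, with Gbp6 at 3.54 (3.19 to 3.93) and the IRG gene Ifi47 at 2.55 (2.31 to 2.82).

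Dabigatran by itself went with small differences from vehicle, measured against the same vehicle library. No member was 2-fold higher, and 0.0897% of all genes were. Beyond counting error 6 were higher (Gbp3, Gbp7, Irgm1, Irgm2, Igtp and Iigp1), with ratios of 1.16 to 1.26, against 15.2% of all genes, and Gbp2, Gbp5 and Tgtp1 were within it. The median difference was 0.23 for the members and 0.00 for all genes.

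Between amiodarone + dabigatran and amiodarone alone, all 9 members were lower beyond counting error, while 15% of the 13261 genes compared were. None was 2-fold lower on the log2(FPKM + 1) scale, as were 0.287% of all genes, and the median difference was -0.49 against 0.03. This comparison uses the same amiodarone library as the comparison with vehicle, so a value that is high by chance in that library enters both with opposite sign.

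Amiodarone + dabigatran against dabigatran alone shares no library with amiodarone against vehicle. In it 8 of the 9 members, all but Gbp3, were higher beyond counting error, against 19.5% of 13379 genes, and none reached 2-fold on the log2(FPKM + 1) scale, against 1.15%. Igtp came nearest with 0.98. The median difference was 0.45 for the members and -0.01 for all genes. Against vehicle, the combination library held more of all 9 beyond counting error (20% of all genes), and on the log2(FPKM + 1) scale 1 member, Igtp, reached 2-fold (1.17% of all genes). As plain FPKM ratios, Igtp (2.41), Tgtp1 (2.24) and Irgm2 (2.04) were above 2. The median difference was 0.63 against -0.01.

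**Figure D3:**
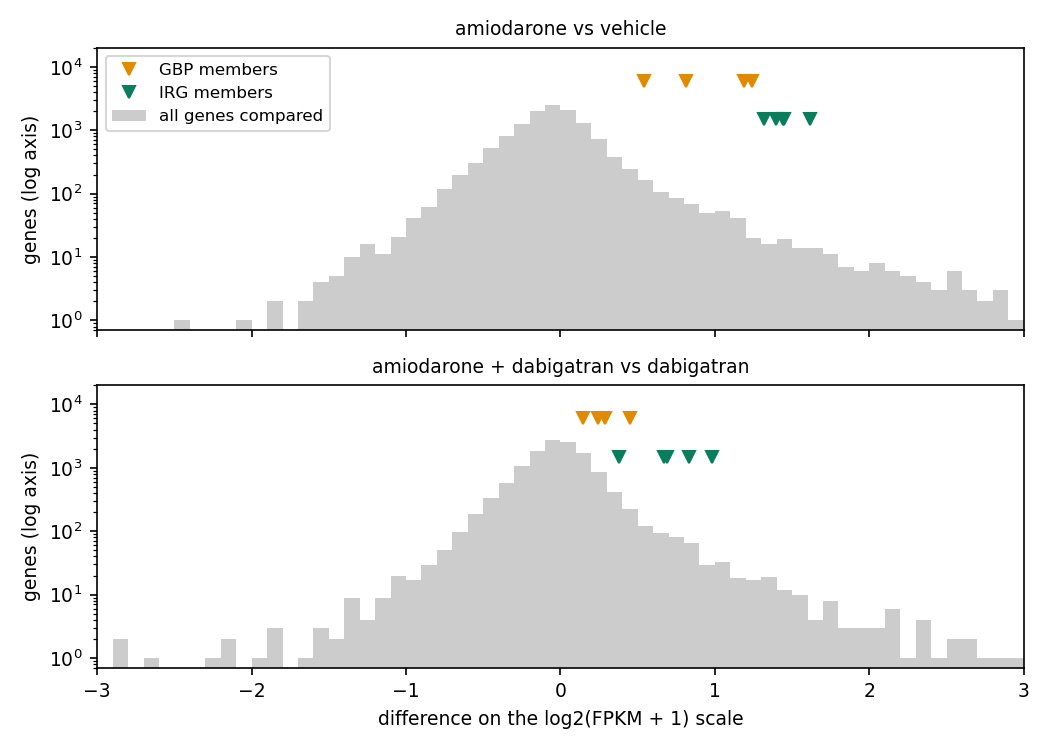
Histograms of the difference on the log2(FPKM + 1) scale over all genes compared (grey, gene number on a log axis), with triangles at the 9 members, for amiodarone against vehicle (upper) and amiodarone + dabigatran against dabigatran (lower). Genes outside the axis range are not drawn. In the upper panel the members lie to the right of most genes, with the IRG members beyond the GBP members, and in the lower panel they are closer to the centre.

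Set side by side, the amiodarone ratio without dabigatran exceeded that with dabigatran for all 9 members, and for 43.7% of the 13237 genes compared both ways. Dividing the first by the second gave 2.24 for Gbp3 (1.93 to 2.61), 2.15 for Iigp1 (1.90 to 2.43), 1.95 for Gbp7 (1.74 to 2.19), 1.75 for Irgm2 (1.59 to 1.92) and 1.66 for Irgm1 (1.46 to 1.89). Igtp (1.57, 1.39 to 1.78), Gbp5 (1.56, 1.27 to 1.92) and Tgtp1 (1.47, 1.17 to 1.86) followed. For Gbp2 the quotient of 1.06 had an interval of 0.971 to 1.16, which includes 1. The interval lay above 1 for 8 of the 9 members and for 15.8% of those genes. Each quotient rests on the same 4 libraries. Members with like ratios to vehicle could differ here. Irgm2 and Iigp1 were 2.83-fold and 2.84-fold higher with amiodarone than with vehicle, but with dabigatran in both libraries Irgm2 was 1.62-fold higher (1.51 to 1.73) and Iigp1 1.32-fold (1.21 to 1.44). Tgtp1 was 1.95-fold higher there by itself, and 1.61-fold when summed with Tgtp2.

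**Figure D4:**
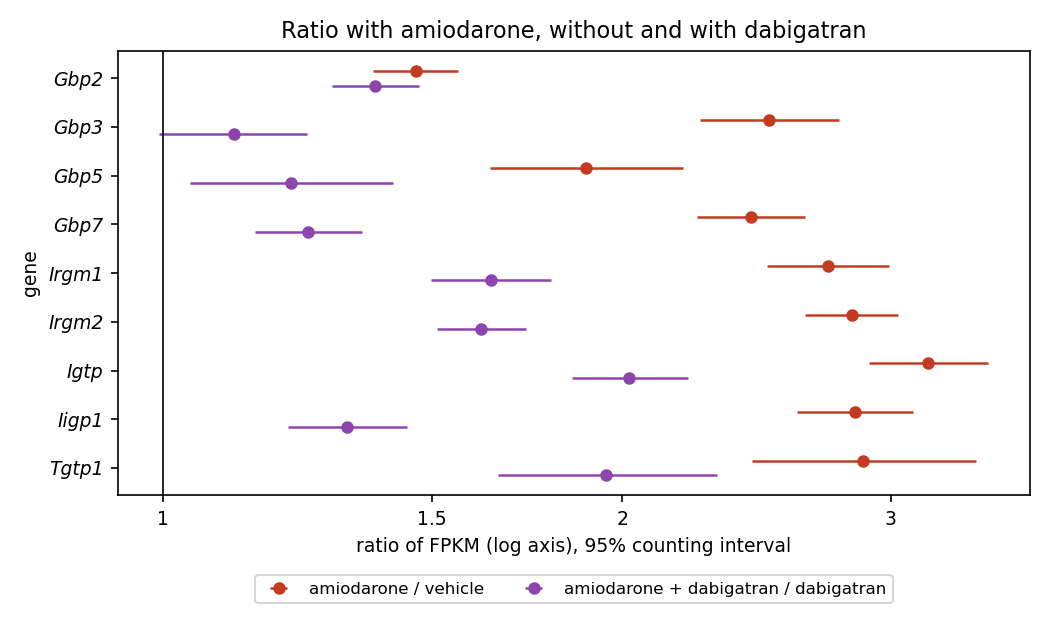
Ratio of FPKM (log axis) of amiodarone to vehicle (red) and of amiodarone + dabigatran to dabigatran (purple) for each member, with 95% counting intervals. The intervals overlap for Gbp2 and are apart for the other 8 members, with the red point to the right, as for 9.87% of the 13237 genes compared both ways.

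The pattern over the 4 libraries was shared: all 9 members were highest with amiodarone and second with the combination. That order was found in 12.5% of the 13183 genes averaging 1 FPKM or more. Likeness to the members was measured as the distance between a gene's differences from vehicle in the other 3 libraries and the members' medians, on the log2(FPKM + 1) scale, over 9675 genes. The 5 nearest were Ly6a, Stat2, Mcf2l, Lgals3bp and Ly6c1, at distances of 0.118 to 0.179. Ly6a, which encodes the surface protein Sca-1, was by far more abundant than the members, at 398.52, 915.32, 468.06 and 623.96 FPKM with vehicle, amiodarone, dabigatran and both drugs. Among the members, Iigp1 (0.126) and Gbp7 (0.152) lay nearest to the medians and Gbp2 (0.853) the farthest.

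The remaining GBP and IRG genes of the mouse gave 18 that could be examined (Gbp11 was not analysed here). Of the 15 compared between amiodarone and vehicle, 13 were higher beyond counting error (19.6% of all genes). Of these, 6 were at least 2-fold higher (1.87% of all genes), and the median difference of the 15 was 0.95. With the combination 12 of 16 were lower than with amiodarone alone beyond counting error (15% of all genes) and none higher (21.2%), with a median of -0.52. The largest ratio to vehicle was that of Gm12250 (Irgb10), an IRG that acts on bacterial membranes, at 1.38, 14.10, 2.81 and 5.68 FPKM in the vehicle, amiodarone, dabigatran and combination libraries. It was 10.2-fold higher with amiodarone than with vehicle (7.90 to 13.4), more than any of the 9 members. Gvin1, a very large inducible GTPase, had 4.82, 18.23, 8.76 and 11.54 FPKM, and Gbp6 6.14, 21.72, 8.72 and 11.38. Gbp4 differed from the members in that it was not lower with the combination than with amiodarone alone beyond counting error, at 18.01 and 17.22 FPKM (ratio 0.956, 0.888 to 1.03). Irgq, which lacks the interferon inducibility of its relatives, stood at 7.62 with vehicle and 7.23 with amiodarone, a ratio of 0.949 (0.860 to 1.05).

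Upstream of these genes, the ligand Ifng was barely detected, with 2, 5, 6 and 9 reads in the vehicle, amiodarone, dabigatran and combination libraries, too few to order them. The receptor subunit genes Ifngr1 (82.58 FPKM with vehicle, 97.22 with amiodarone) and Ifngr2 (50.54 and 51.03), and the kinase genes Jak1 (47.70 and 44.87) and Jak2 (14.98 and 15.25), had ratios of 0.941 to 1.18. The transcription factor genes differed more. Stat2 stood at 11.31, 30.32, 12.51 and 16.64 FPKM in the 4 libraries, and Irf9, which joins it in a complex that binds ISREs, at 22.77, 51.06, 27.29 and 31.88. Both were highest with amiodarone and second with the combination. Irf1, an early interferon-gamma target, had a ratio of 1.31 (1.22 to 1.40), and Irf8 was lower with amiodarone than with vehicle, at 16.14 against 21.35 FPKM. The feedback inhibitor Socs3 stood at 12.29, 38.66, 12.61 and 26.29 FPKM, whereas Socs1 at 4.11 and 4.70 did not differ between vehicle and amiodarone beyond counting error. In all, 7 of the 14 signalling genes compared were higher with amiodarone than with vehicle beyond counting error (19.6% of all genes) and 3 lower (30.1%), with a median difference of 0.19.

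Among other interferon-gamma targets, 13 of the 15 compared were higher with amiodarone than with vehicle beyond counting error (19.6% of all genes). Of these, 5 were at least 2-fold higher (1.87% of all genes), and the median difference of the 15 was 0.70. Between the combination and amiodarone alone 8 were lower beyond counting error (15% of all genes) and 2 higher (21.2%), with a median of -0.18. The chemokine gene Cxcl9 went from 8 reads with vehicle to 80 with amiodarone, 16 with dabigatran and 25 with both drugs. The checkpoint ligand Cd274 (5.08, 11.33, 6.76 and 10.20 FPKM) and the peptide transporter Tap1 (26.17, 54.28, 31.10 and 42.93) were likewise highest with amiodarone. Ciita (4.71, 5.69, 5.27 and 6.29) and Psmb10 (49.90, 65.88, 57.06 and 66.29) were highest with the combination, but within counting error of amiodarone alone. Nos2, the inducible nitric oxide synthase, went the other way, at 0.625 times the vehicle level (0.459 to 0.846), and Serping1 was at 0.933 times (0.906 to 0.960).

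Genes known mainly as type I interferon targets had larger median differences than the members in the 2 comparisons that share the amiodarone library, and slightly smaller ones in the other 3. All 10 compared were higher with amiodarone than with vehicle beyond counting error (19.6% of all genes) and 9 at least 2-fold (1.87%), with a median of 2.10. All 10 were also lower with the combination than with amiodarone alone beyond counting error (15% of all genes). Of these, 7 were at least 2-fold lower (0.287% of all genes), and the median was -1.22 against -0.49 for the members. Ifit3 stood at 36.89, 183.61, 42.55 and 62.66 FPKM in the 4 libraries, and Isg15, a ubiquitin-like modifier, at 11.69, 58.19, 12.27 and 17.00. The amiodarone ratio without dabigatran over that with dabigatran had a median of 2.97 in this list and 1.66 among the members.

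Of 19 autophagy and inflammasome genes whose products work with the GTPases, 8 were higher and 1 lower with amiodarone than with vehicle beyond counting error (19.6% and 30.1% of all genes), none at 2-fold, and the median was 0.11. The highest ratios were those of inflammasome genes, Nlrp3 at 1.72 (1.24 to 2.41) and Casp1 at 1.44 (1.13 to 1.86). Atg5 (10.61 FPKM with vehicle and 11.77 with amiodarone) and Atg16l1 (10.57 and 10.65), whose products mark vacuoles for IRG and GBP loading, were within counting error, and so was Casp4 (10.22 and 11.46), the caspase that GBPs help to activate.

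**Figure D5:**
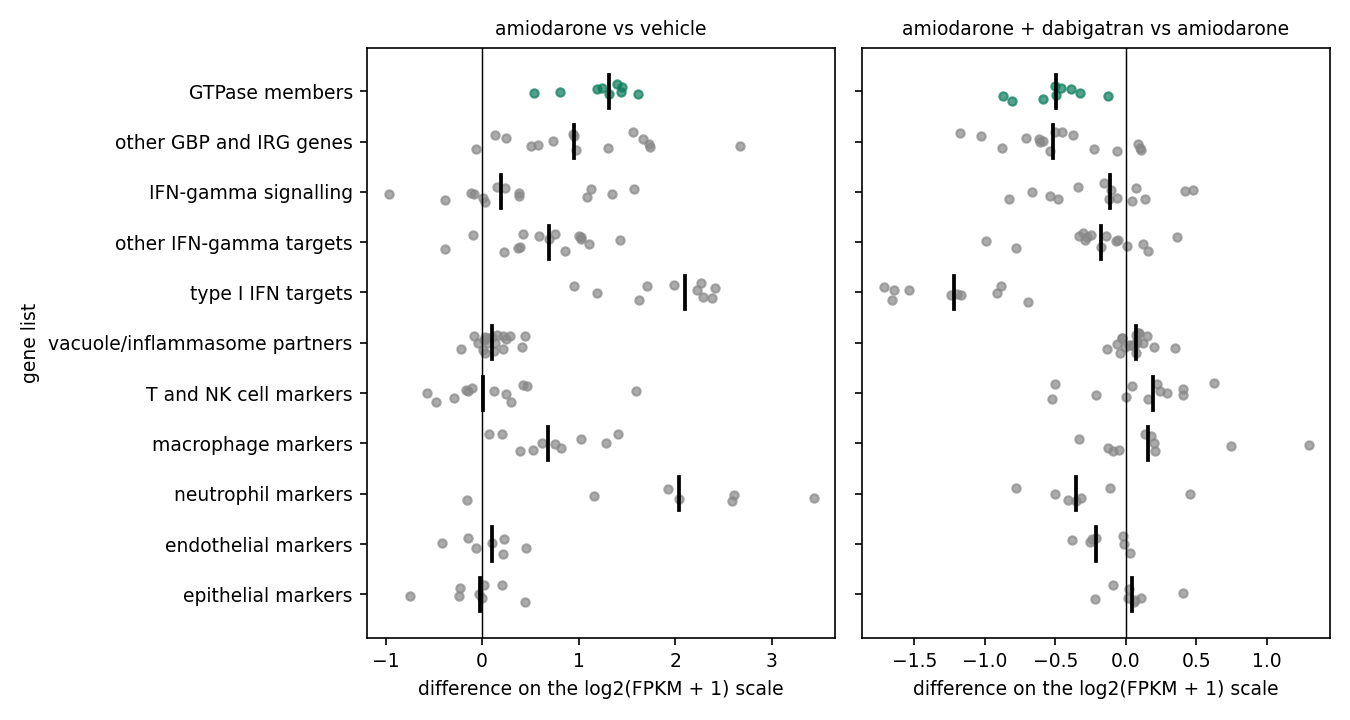
Difference on the log2(FPKM + 1) scale of each gene (points) in 11 gene lists, with the list median as a bar, for amiodarone against vehicle (left) and amiodarone + dabigatran against amiodarone (right). The members (green) have medians of 1.32 and -0.49, and type I interferon targets 2.10 and -1.22. The panels share the amiodarone library.

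Markers of cells that the whole lung holds differed between libraries too. Neutrophil markers summed to 91.0 FPKM with vehicle and 588.12 with amiodarone, and to 68.51 with dabigatran and 424.84 with both drugs. Of the 7 compared, 6 were higher with amiodarone than with vehicle beyond counting error (19.6% of all genes). Ly6g and Camp, defining neutrophil genes, had 1 and 2 reads with vehicle and 22 and 3 with amiodarone. Macrophage markers other than the very abundant Lyz2 summed to 124.84, 213.06, 125.89 and 233.95 FPKM in the same order of libraries. Of the 10 markers, Lyz2 included, 9 were higher with amiodarone than with vehicle beyond counting error (19.6% of all genes). Cd68 stood at 28.58, 77.16, 25.79 and 89.19. With Lyz2 the sums were 3521, 5120, 3819 and 4852. Between the combination and amiodarone alone, 6 of the 10 markers were higher beyond counting error (21.2% of all genes). The other direction held for 3, Lyz2, Itgax and Cd14, which were lower (15% of all genes). T and natural killer cell markers, whose cells are the usual source of interferon-gamma, summed to 83.14, 100.26, 125.33 and 109.80 FPKM. With amiodarone against vehicle 3 of 12 were higher and 3 lower beyond counting error, near the shares over all genes (19.6% and 30.1%). With dabigatran against vehicle 5 of 12 were higher beyond counting error (15.2% of all genes) and none lower (1793 of 13373 genes). Endothelial markers summed to 1250, 1286, 1440.5 and 1171 FPKM. Of the 7, 4 were lower with the combination than with amiodarone alone beyond counting error (15% of all genes). All 7 were lower with the combination than with dabigatran alone beyond counting error (3140 of 13379 genes), whereas all 7 were higher with dabigatran than with vehicle (15.2% of all genes). The epithelial sum, which follows the club cell gene Scgb1a1, was 151804 FPKM with vehicle and 102088 with amiodarone. With dabigatran alone it was 126164 and with both drugs 126859, so it was below vehicle in each. What part these cells had in the members' levels was not tested.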

How the data were processed

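The authors selected poly(A) RNA from left lung, sequenced it by DNBseq, mapped reads with HISAT 2.0.4 (genome GRCm38.p6) and Bowtie2 2.2.5 (gene sequences), and quantified genes with RSEM 1.2.8, so reads matching several genes were divided among them by estimation. The deposited table holds, per library, an estimated count and a normalized value. The unit of the deposited normalized value is not stated and was taken as FPKM, since reads per unit differ between libraries by the ratio of total reads (1.07 for amiodarone against vehicle, both ways). A further 8 columns of means over pairs of libraries were left out.

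Groups came from the labels, with 1 library each, so no test was made and no p-value is given. Ratios were computed from FPKM with exact 95% intervals from estimated counts rounded to whole numbers. A quotient of ratios used a log-scale interval with the variances of the 4 counts. Lists and all genes were compared as log2(FPKM + 1) over genes reaching 1 FPKM in one library or both, and 2-fold refers to this scale. Nearest genes were searched among genes averaging 5 FPKM or more. The genes named are the members, the genes of the family, pathway and cell marker lists, and the 5 nearest genes; 1 gene of these lists is not reported here. Members and lists were chosen with earlier results of these data known. Symbols, coordinates and promoters are from RefSeq for GRCm38.p6, which matched 17669 identifiers. Alternatives were a pseudocount of 0.1, a threshold of 1.5-fold, no filter or 5 FPKM, rescaling by the median ratio, reads scaled to library totals, and Tgtp1 and Tgtp2 summed. Python 3.11.15, scipy 1.17.1 and pandas 2.3.3 were used.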

Additional observations from a re-analysis of the deposited data

How the results depend on the processing

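Of 85 counts and medians recomputed, 78 stayed within the set limits. These were a factor of 1.5 for a count and the counting interval for a median. No median changed direction, which for a count was not defined. Many of the counts that stayed were 0 at every setting. The members lower with amiodarone + dabigatran than with amiodarone went from 0 at 2-fold to 3 at 1.5-fold (1.22% of all genes). Those higher with amiodarone + dabigatran than with dabigatran went from 0 to 1 with a pseudocount of 0.1 (1.79% of all genes), 1 with reads scaled to library totals (1.38%) and 4 at 1.5-fold (3.25%), and those higher than with vehicle from 1 to 3 (1.87%), 3 (1.41%) and 6 (3.20%). Of 95 single-gene values 94 moved by less than counting error; Tgtp1 and Tgtp2 summed gave 1.61 for amiodarone + dabigatran against dabigatran, where Tgtp1 gave 1.95. Depth limits low genes: Ifng had 2 to 9 reads, and a count of 0 allows up to 3. No paired analysis was possible because each group has 1 library.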
